A study of Homo sapiens with 27 samples.

Results

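The 9 genes described here belong to the actin and non-muscle myosin cytoskeleton, and were mapped for 5 RNA modifications. They are the myosin heavy chain genes MYH9 and MYH10, the actin genes ACTB and ACTG1, the filament crosslinker genes FLNA, ACTN1 and ACTN4, and the adhesion linker genes TLN1 and VCL. The genes were chosen by name, and not by a measured value, and 8 of them are among the 11528 genes named in the 4 antibody lists. A peak of an antibody list was a member where the authors named only that gene for it, and a pseudouridine peak where its summit lay inside the gene's span. This gave 183 of 93612 listed peaks, of which 155 were among the 76940 antibody peaks and 28 among the 16672 pseudouridine peaks.

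Total RNA of HepAD38 was sequenced in 27 libraries in 9 groups of 3. HepAD38 is a hepatoma line with a stably integrated hepatitis B virus genome, and its labels give a wild type genotype, liver as the tissue and no agent or time. The marks were m1A (N1-methyladenosine), m5C (5-methylcytidine), m7G (7-methylguanosine) and ac4C (N4-acetylcytidine), for which RNA fragments bound by an antibody (the IP) were set against input RNA. The fifth mark was pseudouridine (Psi), with 3 libraries and no mention of IP or input. All libraries came from 1 line under 1 condition, so each comparison below is between an IP and its input. Each antibody list holds 1 pooled value for the IP and 1 for the input per peak, in RPM, reads scaled to library depth, so there is no spread between replicates, and intervals and tests cover counting error only.

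Non-muscle myosin II pulls on actin filaments to give a cell contractile force. Filamins and alpha-actinins tie the filaments into networks and bundles, and talin and vinculin join them to integrins at focal adhesions. In hepatocytes this machinery underlies the cell cortex and the bile canaliculus. Of the marks mapped, m7G is best known as the cap at the 5′ end of messenger RNA, though it also occurs inside RNAs. m1A has been mapped near the start of messenger RNAs, and m5C, ac4C and Psi occur in several classes of RNA.

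The sequences around the annotated starts are shown because m7G peaks with ratios from 3.24 to 11.7 lay there in MYH9, TLN1, VCL and ACTG1, and an m1A peak with a ratio of 14.2 in ACTN1. MYH10 is shown for comparison with MYH9, and ACTN4 for its Psi peak. Each line runs from 50 bases before to 30 bases after the annotated start, 5′ to 3′, in RefSeq of GRCh38.p14. Such a window was available for 8 of the 9 genes, not for ACTB, and that of FLNA is not shown. Capitals mark the bases under the 5′-most m7G peak, or under the m1A peak for ACTN1 and the Psi peak for ACTN4. The windows lie at MYH9 chr22:36387938-36388017 (minus strand), MYH10 chr17:8630696-8630775 (minus strand), ACTG1 chr17:81512770-81512849 (minus strand), ACTN1 chr14:68979273-68979352 (minus strand), ACTN4 chr19:38647599-38647678 (plus strand), TLN1 chr9:35732166-35732245 (minus strand), VCL chr10:73998066-73998145 (plus strand).
MYH9: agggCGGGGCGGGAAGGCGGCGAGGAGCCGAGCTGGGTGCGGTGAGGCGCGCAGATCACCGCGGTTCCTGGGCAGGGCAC
MYH10: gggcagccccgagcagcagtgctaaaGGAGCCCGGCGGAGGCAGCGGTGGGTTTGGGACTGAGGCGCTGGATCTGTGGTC
ACTG1: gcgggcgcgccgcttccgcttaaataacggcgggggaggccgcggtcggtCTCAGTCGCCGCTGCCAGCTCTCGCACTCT
ACTN1: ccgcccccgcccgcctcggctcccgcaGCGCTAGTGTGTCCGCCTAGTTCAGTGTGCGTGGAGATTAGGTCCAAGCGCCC
ACTN4: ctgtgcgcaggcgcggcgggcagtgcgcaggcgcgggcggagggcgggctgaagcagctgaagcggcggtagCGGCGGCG
TLN1: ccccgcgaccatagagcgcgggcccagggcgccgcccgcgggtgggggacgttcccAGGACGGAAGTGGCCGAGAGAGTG
VCL: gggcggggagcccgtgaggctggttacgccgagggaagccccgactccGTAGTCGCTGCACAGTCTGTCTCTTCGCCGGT
The capitals began 46 bases before the annotated start in MYH9, 24 before it in MYH10, 23 before it in ACTN1 and 2 before it in VCL. They began at the start in ACTG1 and within the first bases of the transcript in TLN1. GC content of these windows ran from 68.8% in VCL and MYH10 to 80% in ACTN4.

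The m1A input was the deepest pool with 364905848 reads, and the IP of ac4C the shallowest with 17135274. The Psi peaks rested on 2218798 tags left of 10921552. Of 12 hepatocyte markers, 11 had a peak in the m1A, m5C and m7G lists, but 1 (HNF4A) had one in the ac4C list. Of 15 fibroblast and other mesenchymal markers, 11 had a peak in the ac4C list, with a summed IP level of 1191 RPM against 4.50 RPM of input, while 2 or 3 had one in each other list, mostly from FN1. Smooth muscle markers had a peak for 0 of 6 genes in the ac4C list and for 1 or 2 in each other list. Endothelial markers had none of 5 in all 4 lists, and of 5 macrophage markers CD68 was listed throughout and LYZ in all but ac4C. The ac4C list thus stood apart from the label of a hepatocyte line. It is reported below as the libraries labelled ac4C, last among the antibody lists, and the part of these markers in its values was not tested.

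A peak's RPM ratio is its IP RPM over its input RPM. A gene's ratio uses the reads summed over its peaks. "Higher" and "lower" mean a call by an exact two-sided binomial test of the recovered reads against the pooled depths, at an adjusted p under 0.05 (Benjamini-Hochberg over the whole list). The median ratio of all peaks was above 1, at log2 values of 0.74 for m1A, 0.01 for m5C, 0.45 for m7G and 3.58 for ac4C, so values scaled to a median of 1 are given where they turn a direction. The log2 enrichment that the authors deposited is another quantity and was above 0 for all member peaks, also where the RPM ratio was below 1.

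Against each list's own input, m1A peaks of the genes were mostly higher in the IP and m5C peaks mostly lower. Of 59 m1A peaks in 8 genes, 48 were higher and 7 lower, where 60.8% of all m1A peaks were higher and 28.3% lower; the median ratio was 2.71, against 1.67 over the list. After scaling to the median ratio of the list, 37 m1A peaks were higher and 17 lower (43.8% and 44.1% of all m1A peaks). Of 35 m5C peaks in 8 genes, 27 were lower and 4 higher, where 42.6% and 42.7% of all m5C peaks were, and the median ratio was 0.269, against 1.01. Of 31 m7G peaks in 8 genes, 22 were higher and 7 lower, where 66.2% and 21.5% of all m7G peaks were, so the shares were near those of the list at this scaling. After scaling to the median ratio, 8 m7G peaks were higher and 23 lower, where 46.2% and 45.5% of all m7G peaks were. By gene, 6 of 8 were higher and 2 lower for m1A (62.2% and 31.5% of all genes), 3 higher and 5 lower for m5C (49.9% and 40.8%), and 6 higher and 1 lower for m7G (81.9% and 11.9%). The gene directions for m1A and m5C were not stable when the input level per kilobase of the other list was used. That level is over the other list's peaks, so the bases change along with the input pool. With the input level per kilobase of the m1A list in place of its own, the m5C ratio crossed 1 in 5 of the 8 genes (MYH9, MYH10, ACTB, FLNA and TLN1), and with that of the m5C list the m1A ratio did in 3 (ACTG1, FLNA and VCL). No share over all genes is given for these counts, so they do not set these genes apart.

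**Figure D1:**
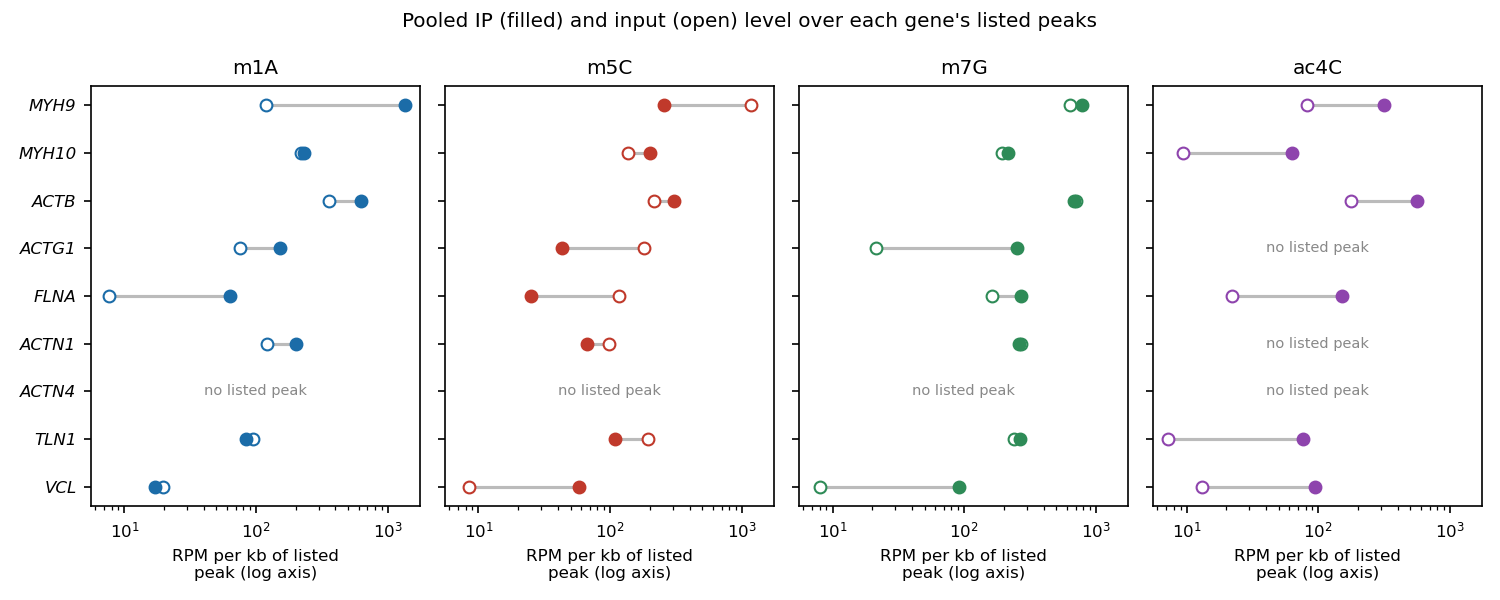
Pooled IP (filled circles) and input (open circles) level of each gene over its listed peaks, in RPM per kilobase of listed peak on a log axis, with 1 panel per antibody list. MYH9 and FLNA have the widest gap in favour of the IP for m1A, where their input is below their m5C and m7G inputs, and a gap in favour of the input for m5C; ACTN4 has no listed antibody peak.

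MYH9, which encodes the heavy chain of non-muscle myosin IIA, had the strongest m1A signal of the 9 genes. Its level reached 9393 RPM in the m1A IP, rank 3 among the 8821 genes of the list, against 828 RPM of input, a ratio of 11.3 (95% exact counting interval 11.3 to 11.4). Nearly all of it came from 1 spliced peak of 41 blocks and 6525 bases, from 29 bases after the annotated start (gene at chr22:36281280-36387967, minus strand). A further peak of 450 bases near the 3′ end had a ratio of 10.4 (9.18 to 11.7), from 2351 IP against 295 input reads. The m1A signal of MYH9 was thus listed over the transcript rather than at a site.

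The same transcript was lower in the m5C IP. Over 4 peaks MYH9 had 722 RPM in the m5C IP and 3296 in the input, a ratio of 0.219 (0.218 to 0.221), and all 4 peaks were lower. Over 6 m7G peaks it had 2273 and 1852 RPM, a ratio of 1.23 (1.22 to 1.23), which fell to 0.899 when scaled to the median. Of these, 5 m7G peaks were higher and 1 lower, and the peak at the start stood out at 3.24 (2.99 to 3.51). MYH9 was thus high by m1A, low by m5C and near parity by m7G, with at least 85440 IP reads behind each value.

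The inputs of these comparisons were not alike. Per kilobase of listed peak, the MYH9 input was 119 RPM in the m1A list, 1167 in m5C, 639 in m7G and 82.2 in ac4C. An m5C peak of 1825 bases that lies inside the m1A peak held 2364 RPM in the m5C input, while the whole m1A peak held 828 RPM in the m1A input. A part cannot hold more reads than the whole in the same RNA, so these inputs differed at least 2.86-fold over the same bases. The ratio of m1A to m5C input density was lower than that of MYH9 in 5.49% of 6996 genes. With the m5C input density in place of its own, the m1A ratio of MYH9 was 1.15, and with the m1A input density the m5C ratio was 2.15, above 1 instead of below it. The direction of the m5C value therefore turned with the input density used, and these densities are over unlike sets of peaks.

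MYH10, which encodes the IIB heavy chain, did not follow MYH9. It had 770 RPM in the m1A IP and 733 in the input over 10 peaks, a ratio of 1.05 (1.04 to 1.06; adjusted p = 5.3e-63 by the exact binomial test), and 0.629 when scaled to the median. Its 6 m5C peaks summed to 342 and 233 RPM, a ratio of 1.47 (1.45 to 1.49), which fell to 0.913 with the m1A input density. That sum hides a split, since a 7-block peak of 850 bases had a ratio of 2.11 (2.08 to 2.14) with 37367 IP reads, while the 4 peaks on its 3′ side ran from 0.245 to 0.375. For m7G the gene ratio was 1.11 (1.10 to 1.12), and 0.813 when scaled. MYH10 lies at chr17:8474212-8630725 on the minus strand.

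ACTB, the cytoplasmic beta-actin gene (chr7:5527148-5530601, minus strand), was covered from end to end by m1A. Its single m1A peak of 6 blocks and 1787 bases held 313088 reads of the IP (1115 RPM) and 231812 of the input (635 RPM), a ratio of 1.76 (1.75 to 1.77). The other marks divided the transcript. For m5C a peak of 375 bases at the annotated 3′ end had 121 RPM in the IP and 76.1 in the input, a ratio of 1.59 (1.56 to 1.63). The neighbouring m5C peak of 25 bases had a ratio of 0.180 (0.156 to 0.208). For m7G the peak at the start had 38.8 and 7.05 RPM, a ratio of 5.51 (5.24 to 5.79), while both peaks further on were lower, at 0.869 (0.858 to 0.880) and 0.836 (0.821 to 0.852). The gene's m7G ratio, dominated by those peaks, was 0.971 (0.962 to 0.981; adjusted p = 2.5e-08, exact binomial test).

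**Figure D2:**
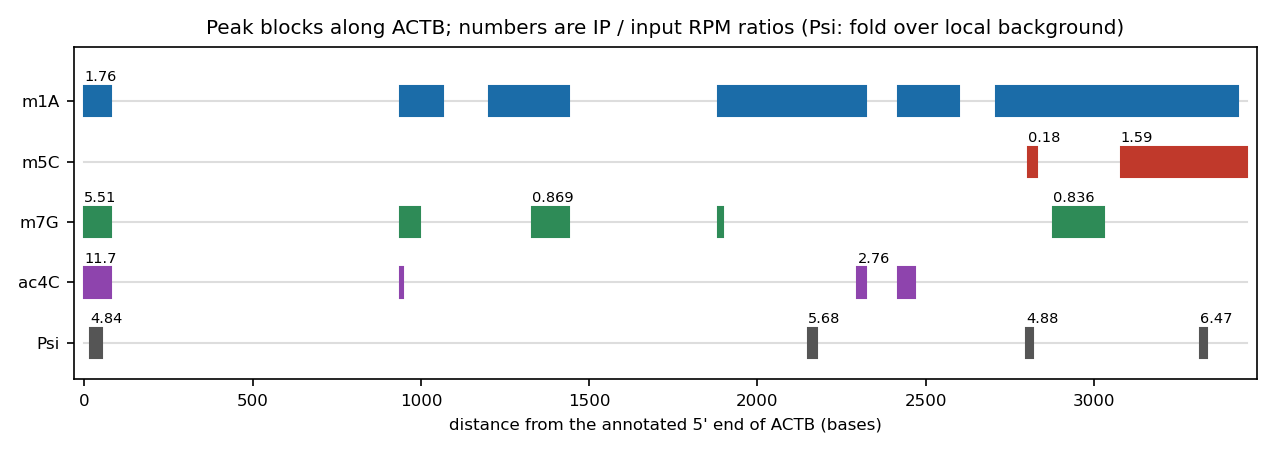
Peak blocks along ACTB by distance in bases from the annotated 5′ end, with 1 row per list; the numbers are IP over input RPM ratios, or for Psi the fold over local background. The m7G and ac4C peaks at the start have the higher ratios of their rows (5.51 and 11.7), and the m5C peak at the 3′ end has the higher of its row (1.59).

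ACTG1, the gamma-actin gene (chr17:81509971-81512799, minus strand), graded along its length by m1A. From 5′ to 3′ its 6 m1A peaks had ratios of 21.5, 3.50, 2.71, 2.11, 0.868 and 0.586, the first from 1176 IP and 71 input reads (16.9 to 27.8). The first 4 were called higher and the last 2 lower, and the gene ratio of 2.01 (1.98 to 2.04) became 0.837 with the m5C input density. Its only m7G peak began at the annotated start, with 66.3 RPM in the IP and 5.65 in the input, a ratio of 11.7 (11.1 to 12.4). Its only m5C peak, of 75 bases, was lower, at 0.238 (0.214 to 0.265). Both actin genes have near-identical copies, with 14 ACTB and 21 ACTG1 pseudogenes named in RefSeq, so their reads may be split. None of the ACTB copies had an antibody peak, ACTG1P20 had one in the ac4C list, and 3 and 6 copies respectively held a Psi peak.

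FLNA, which encodes filamin A, a long rod that crosses actin filaments at wide angles, paired a high m1A ratio with a low m5C ratio, as MYH9 did. All 16 m1A peaks were higher, from 2.17 to 40.9, and the gene had 337 RPM in the IP and 40.8 in the input, a ratio of 8.26 (8.12 to 8.41). Of 10 m5C peaks, 9 were lower and 1, at the 3′ end, was not called (0.816, 0.661 to 1.003; adjusted p = 0.061, exact binomial test). The gene had 30.4 RPM in the m5C IP and 143 in the input, a ratio of 0.213 (0.206 to 0.221). For m7G, 4 of 5 peaks were higher and the gene ratio was 1.68 (1.65 to 1.70). FLNA lies at chrX:154348531-154374634 on the minus strand.

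The FLNA inputs also differed widely. The level was 7.65 RPM per kilobase in the m1A input, 116 in the m5C input, 161 in the m7G input and 22.2 in the ac4C input. A part of 200 bases listed for m7G held 35.8 RPM in the m7G input, while the m1A peak of 800 bases around it held 8.22 RPM in the m1A input, at least a 4.35-fold difference. At a peak of 50 bases listed with the same ends for m5C and ac4C, the inputs were 5.36 and 1.36 RPM, a 3.93-fold difference between input pools. With the m5C input density the FLNA m1A ratio was 0.543, and with the m1A input density its m5C ratio was 3.25, so both directions turned.

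The alpha-actinin genes encode dimers that bundle actin filaments, and their listings differed. ACTN1 (chr14:68874128-68979302, minus strand) had 8 m1A peaks, all higher, with 580 RPM in the IP and 349 in the input, a ratio of 1.66 (1.65 to 1.67) that became 0.994 when scaled to the median and was then not called (adjusted p = 0.13, exact binomial test). Its m5C peaks split sharply, with 12.8 (11.8 to 14.0) near the 3′ end from 3982 IP and 633 input reads, against 0.203 and 0.220 for the other two. Its only m7G peak, of 75 bases and 202 bases after the start, had a ratio of 0.964 (0.927 to 1.001; adjusted p = 0.063 at the gene level, exact binomial test) and was not called. ACTN4 (chr19:38647649-38731589, plus strand) had no listed peak in the 4 antibody lists and 3 Psi peaks. Antibody data on ACTN4 were thus not analysed here, and ACTN1 had no listed ac4C peak.

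TLN1, which encodes talin 1, the integrin-binding end of the linkage, was slightly lower by m1A as a gene while its start was much higher. Over 10 peaks it had 203 RPM in the m1A IP and 230 in the input, a ratio of 0.880 (0.870 to 0.889; adjusted p = 5.4e-124, exact binomial test). A peak of 450 bases in the 5′ part, with 45638 input reads and a ratio of 0.520 (0.512 to 0.529), set that value, while the other 9 peaks were higher, up to 15.9. All but 1 of its 7 m5C peaks were lower, and the gene ratio was 0.561 (0.552 to 0.570), but 1.15 with the m1A input density. Its 4 m7G peaks were higher, from 1.04 to 3.72, with a gene ratio of 1.12 (1.11 to 1.14) that fell to 0.824 when scaled. TLN1 lies at chr9:35696948-35732195 on the minus strand.

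VCL, which encodes vinculin, the talin partner that strengthens adhesions under load, had few reads and steep differences along the gene. Its m1A peaks ran from 25.3 (17.0 to 39.5; 487 IP and 25 input reads) and 10.3 (8.25 to 13.1) at the start to 0.566 (0.528 to 0.607), with 2 higher, 2 lower and 2 not called. The gene ratio of 0.869 (0.838 to 0.901) became 2.03 with the m5C input density. For m5C, a peak of 175 bases 1318 bases before the 3′ end had a ratio of 27.5 (22.9 to 33.3), from 1658 IP against 123 input reads, and the other, in the middle of the gene, was not called (1.07, 0.906 to 1.26). The only m7G peak covered the start, with 11.3 RPM in the IP and 0.998 in the input, a ratio of 11.3 (9.98 to 12.9). VCL lies at chr10:73998116-74121363 on the plus strand.

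The 5′-most peak had the highest m7G ratio in all 5 genes with several m7G peaks, as in 85.8% of the 4191 such genes of the list. The ratio of that peak against the gene's other peaks together was 5.51 against 0.858 in ACTB, 3.24 against 1.22 in MYH9, 3.72 against 1.07 in TLN1, 1.28 against 1.10 in MYH10 and 3.84 against 1.67 in FLNA. Fisher's exact test within each gene called all 5 differences (83.2% of all genes), with the weakest adjusted p values in FLNA (0.00060) and MYH10 (1.6e-13). In FLNA that peak of 25 bases lay 3276 bases from the annotated start and rested on 78 IP and 20 input reads. The only m7G peaks of ACTG1 and VCL, at 11.7 and 11.3, lay at the start as well, whereas that of ACTN1, beginning 202 bases into the gene, was at 0.964. An m7G ratio well above 1 at a peak reaching the start was therefore shared by 5 of these genes across roles. No share over all genes is given for that, though a highest ratio at the 5′-most peak was common over the whole list. In MYH9, TLN1, ACTB and ACTG1 the peak had 2 blocks, so its ratio is not of the start alone.

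By RPM ratio, m1A was also highest at the 5′-most peak in 6 of 7 genes with several m1A peaks (60.5% of the 6218 such genes of the list). The 5′-most peak stood at 25.3 against 0.786 for the other peaks in VCL, 15.9 against 0.832 in TLN1 and 21.5 against 1.97 in ACTG1. The difference was 14.2 against 1.53 in ACTN1 and 3.86 against 1.05 in MYH10. Fisher's exact test called 6 of 7 genes (69.5% of all genes), including FLNA at 10.9 against 7.62, where another peak was the highest. The 5′-most m1A peak of FLNA lay 3401 bases from the annotated start. MYH9 was not called (11.3 against 10.4; adjusted p = 0.17, Fisher's exact test), and its 5′-most peak spans the transcript. By the log2 enrichment in the authors' deposited table, however, the 5′-most m1A peak was the highest in 0 of these 7 genes (39.2% of all genes), so the m1A pattern held for RPM ratios alone.

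For m5C the order was the opposite. The 3′-most peak had the highest ratio in 6 of 7 genes (51.7% of the 5046 such genes of the list), and the 5′-most peak in 0 of 7 (24.6%). ACTB and VCL had 2 m5C peaks each, so there both counts give the same comparison. Among genes with at least 3 m5C peaks, the 3′-most was the highest in 4 of 5 (43.7% of all such genes). The 3′-most peak stood at 12.8 against 0.214 for the other peaks in ACTN1, 27.5 against 1.07 in VCL and 1.59 against 0.180 in ACTB. The contrast was smaller in FLNA (0.816 against 0.208), MYH9 (0.550 against 0.218) and TLN1 (1.03 against 0.555), where the 3′ peak was itself not higher than the input. MYH10 went the other way, at 0.375 against 1.71, but its 3′-most peak lay 10053 bases from the annotated 3′ end. Fisher's exact test called 6 genes higher and MYH10 lower (53% and 25.6% of all genes). The authors' deposited table also had the 3′-most peak highest in 6 of 7 (43.8% of all genes).

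Against each list's own input, the genes with a high m1A ratio had a low m5C ratio. FLNA and MYH9, with m1A ratios of 8.26 and 11.3, had the 2 lowest m5C ratios, 0.213 and 0.219, and VCL, the lowest by m1A at 0.869, had the highest m5C ratio, 6.89. Over the 8 genes Pearson's r of the log2 ratios was -0.72 and Spearman's rho -0.81, and over all 6211 genes with at least 100 input reads in both lists they were -0.30 and -0.33. Genes are not independent replicates, and peaks of the 2 lists cover different parts of a gene. Across these 8 genes, m1A and m7G had an r of -0.20 and a rho of 0.14, so no such order appeared there. Over all 6211 genes compared for that pair they were 0.30 and 0.39. For m1A and the libraries labelled ac4C they were -0.46 and -0.66 over 6 member genes, and 0.21 and 0.20 over 2480 genes. With the inputs exchanged, FLNA, MYH9 and VCL changed places, and no correlation over the 8 genes is given for that setting. With the m1A input density the m5C ratio was 3.25 in FLNA, the highest of the 8, 2.95 in VCL and 2.15 in MYH9. With the m5C input density the m1A ratio was 0.543 in FLNA, 1.15 in MYH9 and 2.03 in VCL. Among the other genes that m1A ratio was 2.91 in ACTB, 2.05 in ACTN1, 1.69 in MYH10, 0.837 in ACTG1 and 0.430 in TLN1. Their m5C ratios with the m1A input density were 0.864, 0.549, 0.913, 0.572 and 1.15, in the same order.

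In the libraries labelled ac4C, all 30 member peaks in 6 genes were higher than the input, as were 100% of all ac4C peaks, so that call says nothing about these genes. Their median ratio of 7.06 was below the list's 11.9, and after scaling to the median 3 peaks were higher and 21 lower (35.2% and 37.4% of all ac4C peaks). The ratio was 10.5 (9.25 to 11.9) in TLN1, 7.27 (6.79 to 7.78) in VCL, 6.85 (6.43 to 7.30) in FLNA, 6.76 (5.77 to 7.90) in MYH10, 3.83 (3.62 to 4.05) in MYH9 and 3.17 (3.01 to 3.35) in ACTB; all 6 were below 1 when scaled, from 0.266 to 0.878, and TLN1, at 0.878, was then not called (adjusted p = 0.051, exact binomial test). The steepest peaks were a FLNA peak of 25 bases at the 3′ end, with 12 IP and 6 input reads (38.9, 13.5 to 126), and a TLN1 peak with 129 and 70 reads (35.8, 26.6 to 48.7). VCL had 8 ac4C peaks against 1 m7G peak, with 22.5 (11.6 to 44.0) at its start. The 2 genes with the most input reads per kilobase, ACTB and MYH9, had the lowest ratios. Input is the denominator of that ratio, so the 2 orders are not independent. Mesenchymal markers were high in this IP, as given above.

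Psi peaks lay in all 9 genes. No share over all genes is given for that, so the counts do not set these genes apart. The spans searched ran from 2.83 kb in ACTG1 to 157 kb in MYH10. MYH9 held 10, MYH10 5, ACTB 4, ACTN4 3, TLN1 2, and ACTG1, FLNA, ACTN1 and VCL 1 each. The fold over local background, as the peak caller gave it, ran from 2.94 in MYH10 to 7.47 in ACTG1, with a median of 4.86 against 3.95 over the list, whose highest was 18.6. These folds rest on pileups of 2 to 9 tags, with no control library and no strand. The Psi peak at the ACTN4 start, 77 bases with its summit 58 bases from the start, had a fold of 6.25 and a pileup of 6. Its other 2 peaks had folds of 3.88 and 3.60. Peaks at the start were also listed in ACTB (4.84), MYH9 (3.86) and VCL (3.89), and FLNA had its only peak at the 3′ end (6.07).

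Peaks of different marks often shared bases in these genes. No such share over all peaks of the lists is given here, so the counts do not set these genes apart. Of the 183 peaks, 138 shared at least 1 base with a peak of another mark in the same gene, and 108 of 153 did when the ac4C list was left out. By list this was 29 of 31 m7G peaks, 32 of 35 m5C, 23 of 28 Psi, 24 of 30 ac4C and 30 of 59 m1A peaks. At the ACTB start, m1A, m7G, ac4C and Psi peaks shared bases, and at the VCL start the m7G peak met peaks of the same 3 other marks. Near the 3′ part of MYH9, the m7G peak of 1275 bases met peaks of all 4 other marks. Long m1A peaks such as those of MYH9 and ACTB cover most of the transcript, so that sharing bases with them says little about place.

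A list of 82 other genes of the same machinery gives the setting. By m1A, 65 had a peak, 44 higher and 21 lower (62.2% and 31.5% of all genes), with a median gene ratio of 1.31 against 1.52 over all genes. PLEC, which encodes the linker plectin, was the highest at 75.4 (74.3 to 76.6), followed by MYH14, the third non-muscle myosin II heavy chain gene, at 21.0 and the Arp2/3 subunit gene ARPC1B at 7.46. The lowest were the contractile-ring scaffold gene ANLN at 0.237, the myosin light chain gene MYL12B at 0.326 and the capping protein gene CAPZA1 at 0.399. PLEC and MYH14 had low m5C ratios, 0.295 and 0.271, and a low m1A input density (4.38 and 10.5 RPM per kilobase) beside their m5C input (141 and 121), as MYH9 and FLNA had. ARPC1B went the other way by m5C, at a ratio of 4.25. Its input densities were 7.28 RPM per kilobase in the m1A list and 13.6 in the m5C list.

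By m5C, 64 of the 82 had a peak, 38 lower and 22 higher (40.8% and 49.9% of all genes), with a median of 0.679 against 1.17 over all genes. CAPZA1 was the highest at 8.44 (7.38 to 9.68), then MYO6, a minus-end-directed myosin gene, at 7.19 and PPP1R12A, the myosin phosphatase targeting subunit gene, at 5.91. The lowest were the actin elongation factor gene VASP at 0.153, ARPC5 at 0.168 and the actin monomer binder gene TMSB10 at 0.181. Of the assembly and turnover genes, 13 of 19 with a peak were lower and 5 higher. The CAPZA1 input was 54.5 RPM per kilobase in the m1A list and 7.44 in the m5C list. Its low m1A and high m5C ratios thus rest on unlike input densities, over unlike sets of peaks.

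By m7G, 63 had a peak, 49 higher and 10 lower (81.9% and 11.9% of all genes), with a median of 1.35 against 1.60. The Arp2/3 genes ACTR2 (6.24, 6.04 to 6.45) and ARPC5 (4.44) and the actin-binding TAGLN2 (5.23) were the highest, while the integrin gene ITGAV (0.742), the kinase gene ROCK2 (0.789) and ARPC3 (0.825) were the lowest. Assembly and turnover genes were higher in 18 of 19, beside that 81.9% of all genes. In the libraries labelled ac4C, 42 had a peak, all higher, with a median of 7.79 against 12.0. FLNC, the muscle filamin gene, reached 908 (412 to 2494; 280 IP and 6 input reads), the smooth muscle and non-muscle light chain gene MYL9 575 (386 to 894), and the mesenchymal filament gene VIM 262 (244 to 282); none of these 3 had a listed peak in the other antibody lists. TMSB10 (2.60) and MYO18A (3.09) were among the lowest. The 3 highest genes of the ac4C order were thus ones the other lists of this line did not name. No share of such genes over the whole ac4C list is given. TMSB4X, further down at 28.2, had no listed peak in those lists either. CALD1 (168), TAGLN2 (105) and MSN (81.7), also high by ac4C, each had a listed peak in at least 1 of those lists.

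Over the 4 log2 gene ratios, 1930 genes with a peak in all 4 lists and enough reads could be compared with MYH9 and ACTB by Euclidean distance. Nearest to MYH9 were NUMA1 (0.56), UHRF1 (0.62) and RPS2 (0.69), where the median gene lay at 4.48. NUMA1 had ratios of 9.61 by m1A, 0.252 by m5C, 1.24 by m7G and 5.29 by ac4C. Nearest to ACTB were MAVS (0.53), RAB13 (0.63) and CHD4 (0.66), with a median distance of 2.62.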

How the data were processed

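The members and gene lists were chosen with earlier results of these data known. HISAT2, StringTie, DESeq and hg38 are named without roles in the submitters' processing notes, and no caller is named for the antibody lists. For each antibody the authors deposited pooled RPM values per peak, a log2 enrichment and a p-value, per the file headers; the last 2 served to rank or filter peaks. Psi peaks were called with MACS 2.2.6 without a control, per the file headers, and its pileup signal, fold and −log10 values are those deposited. Every RPM value (100%) equalled a whole number of reads within 0.1 read, which gave pooled reads and depths. An exact binomial test (scipy 1.17.1) with Benjamini-Hochberg adjustment over each list and Clopper-Pearson 95% intervals were tested on reads simulated with counting error only. Fisher's exact test of the outermost peak was added after the data were seen and was not part of that simulation. Tests compare pooled libraries, not conditions. The labels do not say whether a group's libraries are separate cultures. Text names all member genes, the 3 highest and 3 lowest of the cytoskeleton list with at least 100 input reads (20 IP reads for ac4C), and 3 nearest profiles; 1 gene that this rule names is not reported here. PLEC, MYH14 and ARPC1B input levels and start and end comparisons were chosen after values were seen. Peaks naming several genes were left out, including 2 m1A peaks that name TLN1 with a microRNA gene; some listed peak numbers are not reported here. Alternatives were median scaling, a 2-fold minimum, an adjusted p under 0.01, a read minimum, stricter lists, other inputs, peak lengths and overlap rules.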

Additional observations from a re-analysis of the deposited data

How the results depend on the processing

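No paired analysis was possible because the deposited values are pooled over the libraries of a group, and leaving out a library was not possible for the same reason. Scaled to a median ratio of 1, m1A peaks of these genes were higher in 37 cases and lower in 17 (43.8% and 44.1% of all peaks), m7G peaks higher in 8 and lower in 23 (46.2% and 45.5%), and ac4C peaks higher in 3 and lower in 21 (35.2% and 37.4%). With a 2-fold difference required, 7 m7G peaks were higher (37.6% of all), and 0 m1A and 0 m7G peaks were lower (10.8% and 0.0472%). Among the peaks above the median significance of their deposited list, 26 m1A peaks were higher and 4 lower of 30 (62.5% and 30.2% of all), 10 m5C peaks lower of 15 (40.6%), 12 m7G peaks higher and 4 lower of 16 (75.7% and 17.6%), and 13 ac4C peaks higher of 13 (100%), fewer peaks being tested. Other planned settings kept these counts within 1.5 times.

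Scaling also turned called gene ratios: MYH10 (0.629) for m1A, MYH9 (0.899), MYH10 (0.813) and TLN1 (0.824) for m7G, and MYH9 (0.321), MYH10 (0.566), ACTB (0.266), FLNA (0.574) and VCL (0.609) for ac4C. ACTN1 for m1A (0.994) and TLN1 for ac4C (0.878) fell below 1 and were no longer called (adjusted p = 0.13 and 0.051, exact binomial test), and ACTN1 became lower for m7G (0.706). With the m5C input density, the m1A ratios of ACTG1 (0.837), FLNA (0.543) and VCL (2.03) turned. With the m1A input density, the m5C ratios of MYH9 (2.15), MYH10 (0.913), ACTB (0.864), FLNA (3.25) and TLN1 (1.15) turned. These densities are over unlike sets of peaks, and the cause was not tested. The 5′-most m1A peak was highest in 0 of 7 genes by the authors' enrichment. Peaks sharing bases with another mark numbered 82 of 132 when only those higher in the IP were kept, by construction. The median input level was 107, 160, 216 and 17.6 RPM per kilobase in the m1A, m5C, m7G and ac4C lists; over the longest peak of each gene it was 56.1, 179, 283 and 11.7, and over peaks of at least 100 bases 109, 142, 194 and 12.3. Some peaks rested on few reads, such as a MYH10 m1A peak with 21 IP and 18 input reads and a FLNA ac4C peak with 12 and 6, and the ac4C IP was the shallowest pool.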
